A study of Mus musculus with 14 samples.

Results

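The genes described here were 10 antioxidant and iron storage genes measured in dorsal horn microglia: Hmox1, Txnrd1, Prdx1, Prdx5, Gclm, Gpx1, Sod2, Fth1, Ftl1 and Tfrc. They were chosen by name, as every gene of the deposited values with one of these symbols, and all 10 of them were found among 14329 genes. Each of the 10 genes passed the filter on low counts, which left 12645 genes to be tested.

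Microglia, the resident macrophages of the central nervous system, of the lumbar dorsal spinal cord were sorted as cells with low CD45 that carried CD11b and CX3CR1, 2000 of them for each library. The mice were 6 months old and on a C57BL/6 background, either wild type (WT) or TASTPM, which are heterozygous for transgenes that include human APP with the Swedish mutation under the neuronal Thy-1 promoter. They received arthritogenic K/BxN serum (K/BxN ST) or serum from KRN/C57 mice (Control ST) on days 0 and 2, and RNA was collected on day 5. There were 4 libraries each for WT K/BxN ST and TASTPM K/BxN ST and 3 each for WT Control ST and TASTPM Control ST. As the promoter is neuronal, the TASTPM microglia stand for cells in a transgenic tissue, and the arthritis is passive, in recipients of serum.

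Heme oxygenase 1, thioredoxin reductase 1, peroxiredoxin 1 and the glutamate-cysteine ligase modifier subunit are classical targets of the transcription factor NRF2, which binds antioxidant response elements (ARE) in DNA when oxidants or electrophiles free it from its inhibitor KEAP1. Peroxiredoxins and glutathione peroxidase reduce peroxides, mitochondrial superoxide dismutase makes hydrogen peroxide from superoxide, and the ferritin heavy and light chains store the iron that heme oxygenase releases. Ferritin and the transferrin receptor are regulated in opposite ways by iron. When iron is low, iron regulatory proteins bind a hairpin, the iron-responsive element (IRE). They block translation of ferritin mRNA but stabilise transferrin receptor mRNA, so that protein and mRNA can part for ferritin.

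The IREs are shown because they mark the members that iron regulates after transcription. For Fth1 and Ftl1 the protein level need not follow the mRNA counts, while for Tfrc the mRNA itself is stabilised. A search of annotated mouse transcripts for a C, 5 bases, CAGTG and 1 further base, with the 5 bases paired across the loop, found the pattern in 464 of 78045 gene names (0.595%), and in 3 of the 10 members. Fth1 and Ftl1 each carried 1 such element in the 5′ UTR and Tfrc carried 4 in the 3′ UTR. The elements lay at chr19:9960097-9960123 on the plus strand (Fth1), chr7:45109204-45109230 on the minus strand (Ftl1) and chr16:32450038-32450064 and chr16:32450529-32450555 on the plus strand (the first and the fourth of Tfrc) of GRCm39. Capitals mark the 6 bases of the loop, and each sequence reads 5′ to 3′ along the mRNA.
Fth1 IRE: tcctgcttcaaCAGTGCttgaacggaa
Ftl1 IRE: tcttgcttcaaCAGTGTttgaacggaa
Tfrc IRE 1: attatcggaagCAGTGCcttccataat
Tfrc IRE 4: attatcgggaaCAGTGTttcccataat
The ferritin elements were identical at 25 of 27 bases. Those of Tfrc share the loop start with them and hold other stem sequences.

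The ARE matches are shown as letters of the kind NRF2 can bind, in the window given, and binding was not measured. TGACNNNGC was searched on both strands of RefSeq promoters (GRCm38.p6), 250 bases before to 50 after each start, and was present in 12.4% of 32851 promoters. Of 13 promoters of 9 members, 3 held a match, and no promoter was in hand for Hmox1. The matches were placed on GRCm39 by their sequence at chr3:122039062-122039090 (Gclm), chr4:116542653-116542681 (Prdx1) and chr10:82694938-82694966 (Txnrd1), each on the plus strand with the motif on the minus strand in capitals.
Gclm ARE: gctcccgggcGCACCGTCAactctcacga
Prdx1 ARE: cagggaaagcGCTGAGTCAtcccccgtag
Txnrd1 ARE: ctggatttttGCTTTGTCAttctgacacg
They began 134, 133 and 92 bases before the RefSeq start of the promoter printed for Gclm, Prdx1 and Txnrd1. In each case the annotated gene on GRCm39 begins further upstream than that start, at 122039126, 116532123 and 82669785. The Prdx1 and Txnrd1 matches thus lay inside the annotated gene. The Prdx1 match also overlapped an AP-1 motif (TGACTCA or TGAGTCA), which 5.20% of promoters held.

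Libraries held 14223015 to 20239175 reads on genes. In 4 libraries, numbers 1 and 2 of WT K/BxN ST and of TASTPM K/BxN ST, the 12 monocyte markers took 2.29 to 4.39% of reads, against 0.0523 to 0.141% in the other 10 libraries, and none of the 12 was at 0 in all of these 10. Ccr2, a chemokine receptor of monocytes, ranged from 8537 to 27035 normalized counts in the 4 libraries and from 3.13 to 86.0 in the others. The study's sort was gated against this receptor. The 12 microglia markers took 2.29 to 5.39% of reads in the 4 libraries and 6.54 to 8.46% in the others, and neutrophil markers took 1.21 to 1.32% in 3 of the 4. Border macrophage markers (9 of 10 measured) took 0.0947 to 0.227% in the 4 and 0.0188 to 0.0490% in the others, and dendritic cell markers (5 of 6 measured) 0.00604 to 0.0491% and 0.000544 to 0.00357%, so these lists separated the same libraries. These 4 libraries are called monocyte-marker-high below, and since libraries are bulk RNA, fewer cells of a type and less RNA per cell cannot be told apart. Y-linked minus Xist expression lay between 5.06 and 8.93 on the log2 scale in the 4 libraries and between -11.8 and 7.55 in the others, and each of the 4 groups held libraries on either side of 0.

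The groups are those named in the header of the deposited values, and the column numbers there do not all match the labels. Of the 14 columns, 10 carry a number that the labels give to the same group, 2 carry a number of another group (WT K/BxN ST library 4, whose number the labels give to a WT Control ST sample, and TASTPM Control ST library 3, whose number they give to a WT K/BxN ST sample) and 2 in WT Control ST carry a number that the labels do not use. Results were therefore also computed without the 2 libraries of conflicting number, an alternative chosen after the data were seen. No member was called then, beside 0.0237% of tested genes in WT, 0.00791% in TASTPM and 0.0% for the averaged serum effect. The log2 fold change was positive for 9 of 10 members in each of these, with medians of 0.59, 0.43 and 0.50 beside 0.07, -0.0047 and 0.04 over all tested genes.

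The members fell into an abundant and a scarce class. Compared per length, as reads per kilobase of exon scaled to the reads on genes (RPKM), Fth1 averaged 765 ± 115 (SD, n = 14) and Ftl1 756 ± 357, which placed them 41st and 42nd of all genes. Gpx1 followed with 523 ± 439, then Prdx1 with 87.1 ± 44.5, Prdx5 with 65.7 ± 52.4 and Hmox1 with 60.0 ± 34.8. Txnrd1 had 6.30 ± 2.54, Sod2 3.73 ± 1.48, Gclm 3.28 ± 1.25 and Tfrc 1.75 ± 1.20. Neighbours in this order whose means lay within 1 SD of both genes were Fth1 and Ftl1, Ftl1 and Gpx1, Prdx1 and Prdx5, Prdx5 and Hmox1, and Sod2 and Gclm. The spread was narrowest for Fth1, whose highest library had 1.54 times the normalized count of its lowest, and widest for Hmox1, with 9.71 times.

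**Figure D1:**
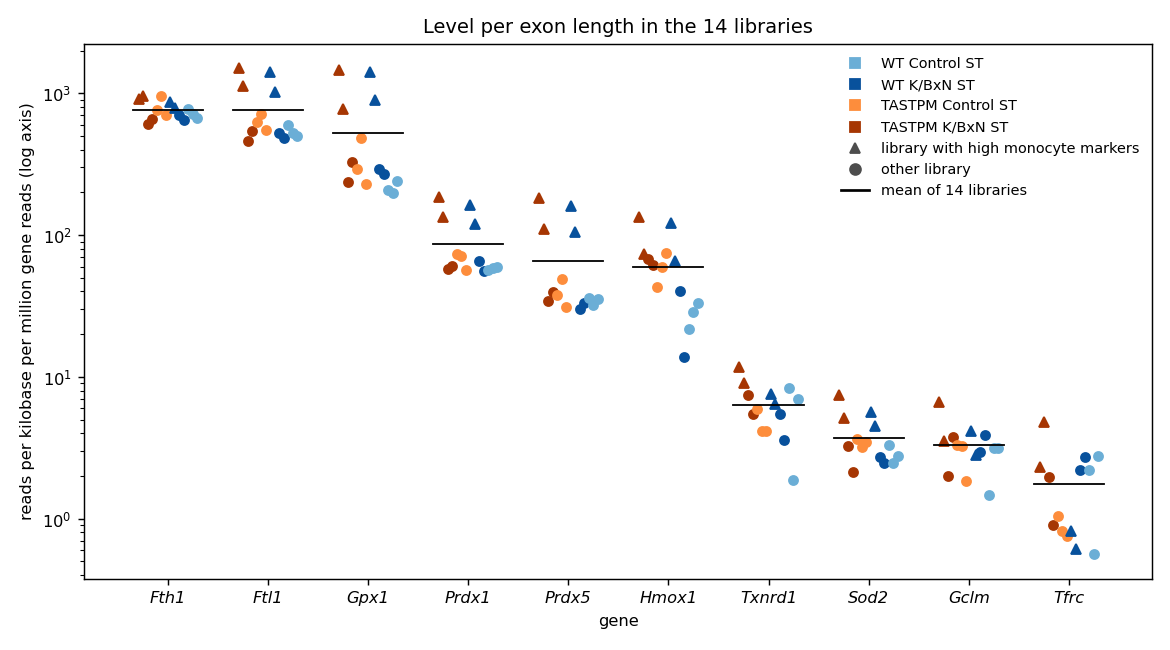
Level of each gene in every library, in RPKM on a log axis, with colours for the 4 groups, triangles for the 4 monocyte-marker-high libraries and a line at the mean of 14 libraries. Fth1 and Ftl1 lie near 765 and 756 and Tfrc near 1.75, and the triangles of Ftl1, Gpx1, Prdx1 and Prdx5 stand above all circles of the same gene.

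The first question was whether K/BxN serum changed these genes in WT microglia. Gpx1, which reduces hydrogen peroxide with glutathione, had the largest difference of the 10: its mean was 17376 ± 13225 (SD, n = 4) normalized counts for WT K/BxN ST against 5461 ± 575 (n = 3) for WT Control ST. Single libraries held 34230.2, 21614, 7165 and 6495 normalized counts for WT K/BxN ST against 5481, 4877 and 6026 for WT Control ST. All 4 K/BxN ST libraries were thus above all 3 Control ST libraries, by little for the 2 that were not monocyte-marker-high. Gpx1 was the only member whose groups did not overlap, and 3.67% of tested genes were above in the same way. Border macrophage markers took 0.0262 to 0.227% of reads in WT K/BxN ST and 0.0188 to 0.0215% in WT Control ST. Dendritic cell markers took 0.00284 to 0.0288% and 0.000544 to 0.00127%. These lists separated the groups in the same direction, while the other cell type lists overlapped, and their part in the values of Gpx1 was not tested. The log2 fold change of Gpx1 was 1.32 (SE 0.61, 95% interval 0.01 to 2.64), with an unadjusted p of 0.0483 and an adjusted p of 0.698 in limma. It was 0.88 to 1.68 with 1 library left out at a time and 1.68 (SE 0.64) without the 2 libraries of conflicting number. The two-sided exact permutation test gave p = 0.0571, the smallest that 4 against 3 libraries allow. In limma 4.77% of tested genes had an unadjusted p below 0.05 in this direction. Since the study counts single mice as its replicates, the p values measure the spread between mice, 1 library for each.

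No member was called in WT by limma, for which the adjusted p had to be below 0.05 and the log2 fold change beyond 1 in size, while 1 gene in all was called (0.00791% of those tested). An unadjusted p below 0.05 was reached by 1 member in limma, 1 in edgeR and 3 in DESeq2, beside 4.18% of tested genes upward in edgeR and 7.58% in DESeq2, which was run without the filter, and none was called by either of these, which called 0.0% and 1.93% of tested genes. Of the 10 members, 8 had a positive log2 fold change, with a median of 0.45 beside 0.06 over all tested genes. The serum response of the NRF2 targets Hmox1 (log2 fold change 0.68), Prdx1 (0.60), Gclm (0.43) and Txnrd1 (0.16), and of the mitochondrial and peroxisomal peroxiredoxin Prdx5 (0.83), had intervals that spanned 0. The value of Hmox1 rested on single libraries: it was 1.27 (SE 0.38, unadjusted p 0.0059, adjusted p 0.584 in limma) without the 2 libraries of conflicting number, of which WT K/BxN ST library 4 enters this comparison, 0.21 without WT K/BxN ST library 1 and -0.28 without the monocyte-marker-high libraries. Its averaged serum effect was 0.95 (unadjusted p 0.00497, adjusted p 0.485 in limma) without those of conflicting number and -0.060 without the monocyte-marker-high ones. The intervals of Ftl1 (0.47) and Sod2 (0.29) also spanned 0, and Fth1 had a log2 fold change of -0.0034 with a 95% interval from -0.48 to 0.47. Tfrc, which imports transferrin-bound iron, had a log2 fold change of -0.25 with the widest interval, from -1.75 to 1.25.

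Prdx5 shows how the values were spread. WT K/BxN ST libraries held 6857, 4365, 1278 and 1393 normalized counts and WT Control ST libraries 1646, 1375 and 1548. The 2 monocyte-marker-high libraries were far above the control libraries, and the other 2 lay within or below their range. Prdx1, a cytosolic peroxidase that draws electrons from thioredoxin, had 11479.6, 8226, 4649 and 3862 for WT K/BxN ST against 4273, 4140.2 and 4297 for WT Control ST, with the same 2 libraries apart. The exons of Prdx5 share 732 bases with Trmt112, a gene on the other strand that is also in the deposited values, and whether reads were counted by strand is not given in the sources used here. Reads of the 2 genes can therefore not be told apart there. The same limit holds for Gpx1, whose 1445 exon bases share 1232 with Gm57050, an annotated gene on the other strand not found in the deposited values. Exons of Gclm overlap 3 annotated genes, by at most 869 bases each, and 1 of these genes is in the deposited values. Exons of Prdx1 and Sod2 overlap annotated genes on the other strand that are not found there.

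**Figure D2:**
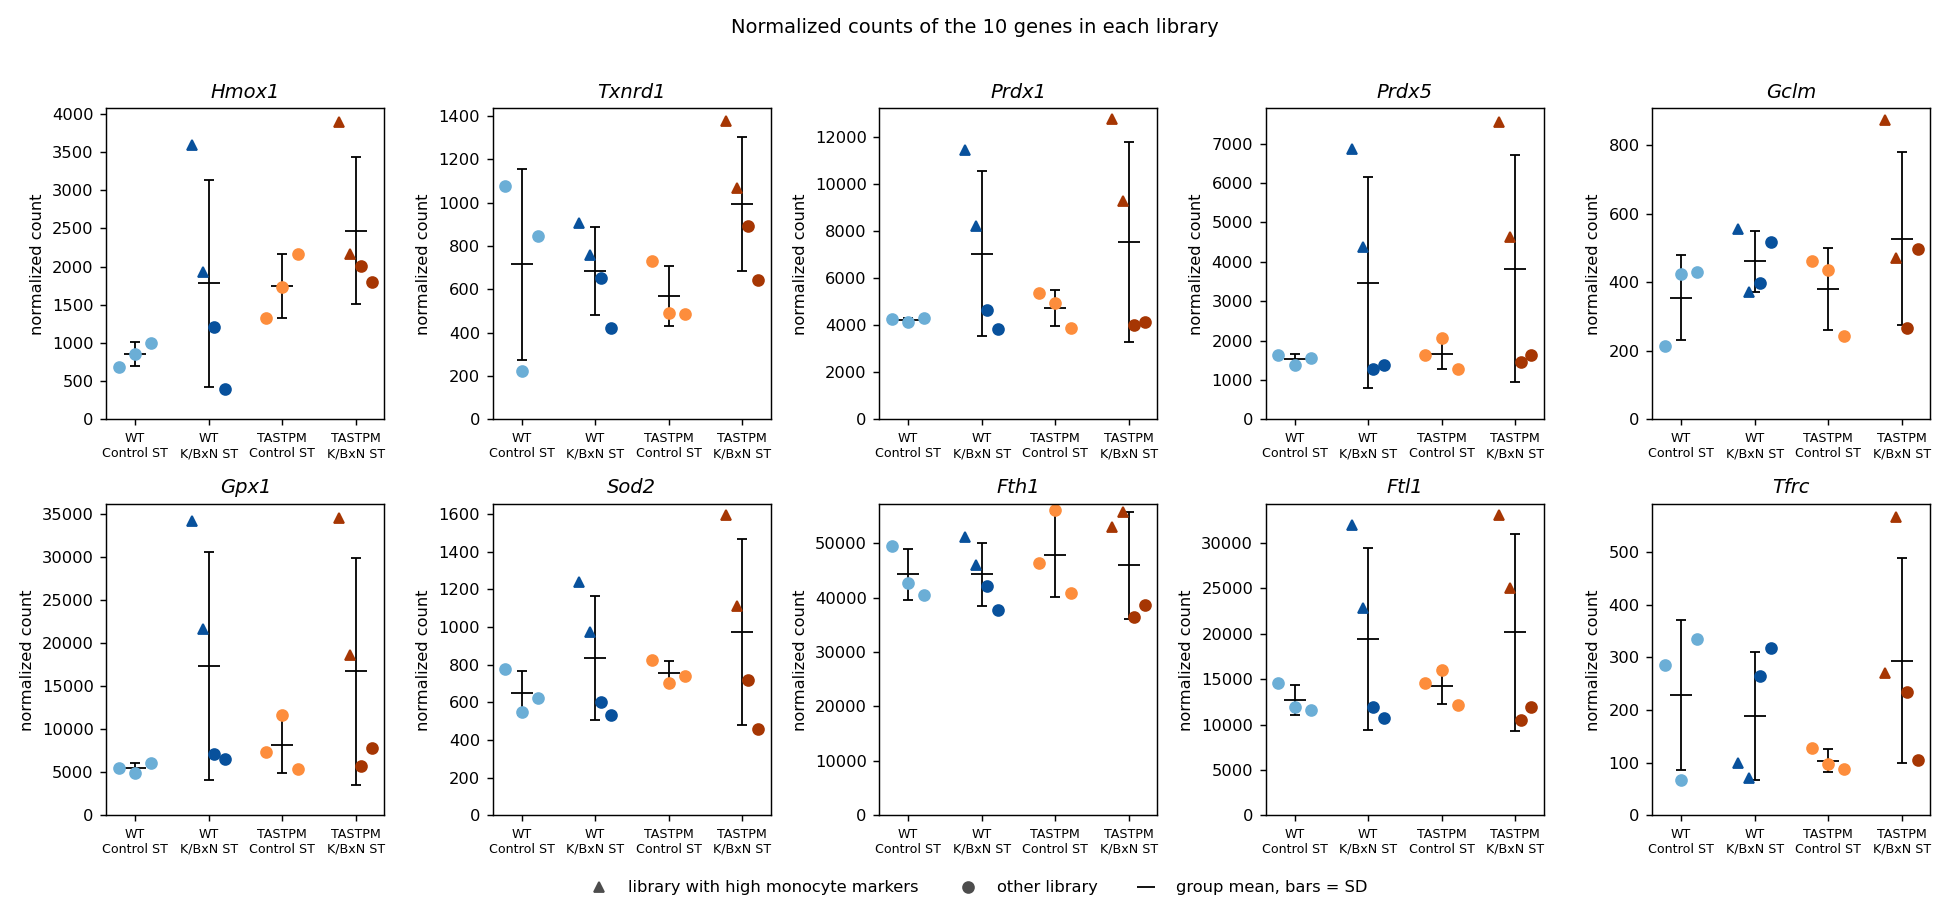
Normalized counts of the 10 genes on linear axes from 0, 1 panel per gene, with 1 symbol per library, triangles for the monocyte-marker-high libraries, a dash for the group mean and bars for the SD. In WT and in TASTPM, the triangles of Prdx1, Prdx5, Gpx1, Ftl1 and Sod2 are above all circles, while Fth1 and Tfrc do not separate in this way.

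The same question was asked in TASTPM. No member was called (0 genes in all, 0.0% of those tested), and an unadjusted p below 0.05 was reached by 0 members in limma, 0 in edgeR and 2 in DESeq2, beside 2.62% of tested genes upward in limma, 2.7% in edgeR and 5.21% in DESeq2. The log2 fold change was positive for 9 of 10 members, with a median of 0.48 beside 0.01 over all tested genes. No member had all K/BxN ST libraries above all Control ST libraries, which 2.67% of tested genes had. Prdx5 (log2 fold change 0.89), Txnrd1 (0.78), Gpx1 (0.75), Prdx1 (0.51), Hmox1 (0.46), Gclm (0.40), Ftl1 (0.34), Sod2 (0.21) and Fth1 (-0.07) all had 95% intervals that spanned 0. Gpx1 had 34579, 18655, 5786 and 7813 normalized counts for TASTPM K/BxN ST against 7404, 11703 and 5429.8 for TASTPM Control ST. Its 2 monocyte-marker-high libraries were the highest, and the other 2 lay within the range of the controls.

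Tfrc had the largest difference in TASTPM. Its normalized counts were 270.4, 566, 234 and 105 for TASTPM K/BxN ST against 128, 96.6 and 87.2 for TASTPM Control ST. Here 3 of the 4 K/BxN ST libraries were above all controls and the fourth lay among them. The log2 fold change was 1.26 (SE 0.70, 95% interval -0.24 to 2.76), with an adjusted p of 0.964 in limma and p = 0.114 in the two-sided exact permutation test, and it was 0.87 to 1.67 with 1 library left out at a time. Without the monocyte-marker-high libraries it was 0.60 (SE 0.74). In WT, Tfrc had 98.5, 71.7, 264 and 318 under K/BxN ST against 285, 67.1 and 335 under Control ST, so that the monocyte-marker-high libraries were the lower ones of their group. The difference between the genotypes in the serum response was 1.51 on the log2 scale (95% interval -0.61 to 3.63), with an unadjusted p of 0.149 and an adjusted p of 0.999 in limma, and it was -0.032 without the monocyte-marker-high libraries, 1.74 without the libraries of conflicting number and 1.09 to 2.24 with 1 library left out at a time. Tfrc had 80 to 595 reads per library, the fewest of the members.

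A difference between the genotypes in the response to serum passed the test for no member. The interaction called 0 members and 0 genes in all (0.0% of those tested), and no member had an unadjusted p below 0.05 in limma, edgeR or DESeq2, beside 3.04%, 2.6% and 3.87% of tested genes. The member interactions ranged from -0.58 for Gpx1 to 1.51 for Tfrc on the log2 scale, and for 9 of the 10 genes the 95% interval reached a difference of 1 in at least 1 direction, Fth1 being the exception with -0.73 to 0.60. Averaged over the genotypes, the serum effect was positive for 9 of 10 members, with a median of 0.49 beside 0.03 over all tested genes. No member was called (0.0% of tested genes), and Gpx1 had the largest effect at 1.04 (95% interval 0.11 to 1.96), with an unadjusted p of 0.0311 and an adjusted p of 0.536 in limma. Over all alternatives this effect of Gpx1 ranged from 0.053 to 1.36. An unadjusted p below 0.05 was reached by 1 member in limma, 4 in edgeR and 4 in DESeq2, and 5.79%, 6.82% and 9.95% of tested genes reached it upward in these. Permuted within genotype, the exact test gave p = 0.0637 for Gpx1, 0.132 for Prdx1 and 0.136 for Prdx5.

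Several members separated the monocyte-marker-high libraries from the rest. In 5 of the 10 genes, Gpx1, Prdx5, Prdx1, Ftl1 and Sod2, each of the 4 monocyte-marker-high libraries was above each of the other 10, and 7.63% of tested genes had that pattern. For Prdx5 the lowest of the 4 was 2.12 times the highest of the 10, for Gpx1 1.59 times, for Prdx1 1.53 times, for Ftl1 1.42 times and for Sod2 1.18 times. Prdx5 ranged from 4365 to 7557 normalized counts in the 4 libraries, from 1278 to 1639 in the other K/BxN ST libraries and from 1293 to 2058 in the Control ST libraries. The remaining K/BxN ST libraries thus overlapped the controls. Hmox1, Txnrd1, Gclm, Fth1 and Tfrc had no such gap.

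With the 4 libraries left out, an alternative chosen after the data were seen, the median log2 fold change of the members was -0.15 in WT and -0.14 in TASTPM, beside 0.04 and -0.01 over all tested genes. Then 4 of the 10 were positive in WT and 3 in TASTPM. For the averaged serum effect 4 of the 10 were positive, with a median of -0.080 beside 0.019 over all tested genes. Gpx1 had a log2 fold change of 0.33 (SE 0.28) in WT and -0.21 (SE 0.28) in TASTPM, Prdx5 of -0.19 and -0.077, and Ftl1 of -0.16 and -0.34. These fits hold 2 K/BxN ST libraries per genotype, and the smallest adjusted p of a member was 1.00 in WT and 0.996 in TASTPM (limma). With a score of the monocyte and neutrophil markers as covariate and all libraries kept, the median of the members was -0.15 in WT and -0.17 in TASTPM, beside 0.03 and -0.01 over all tested genes, and neither a member nor any other gene was called.

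**Figure D3:**
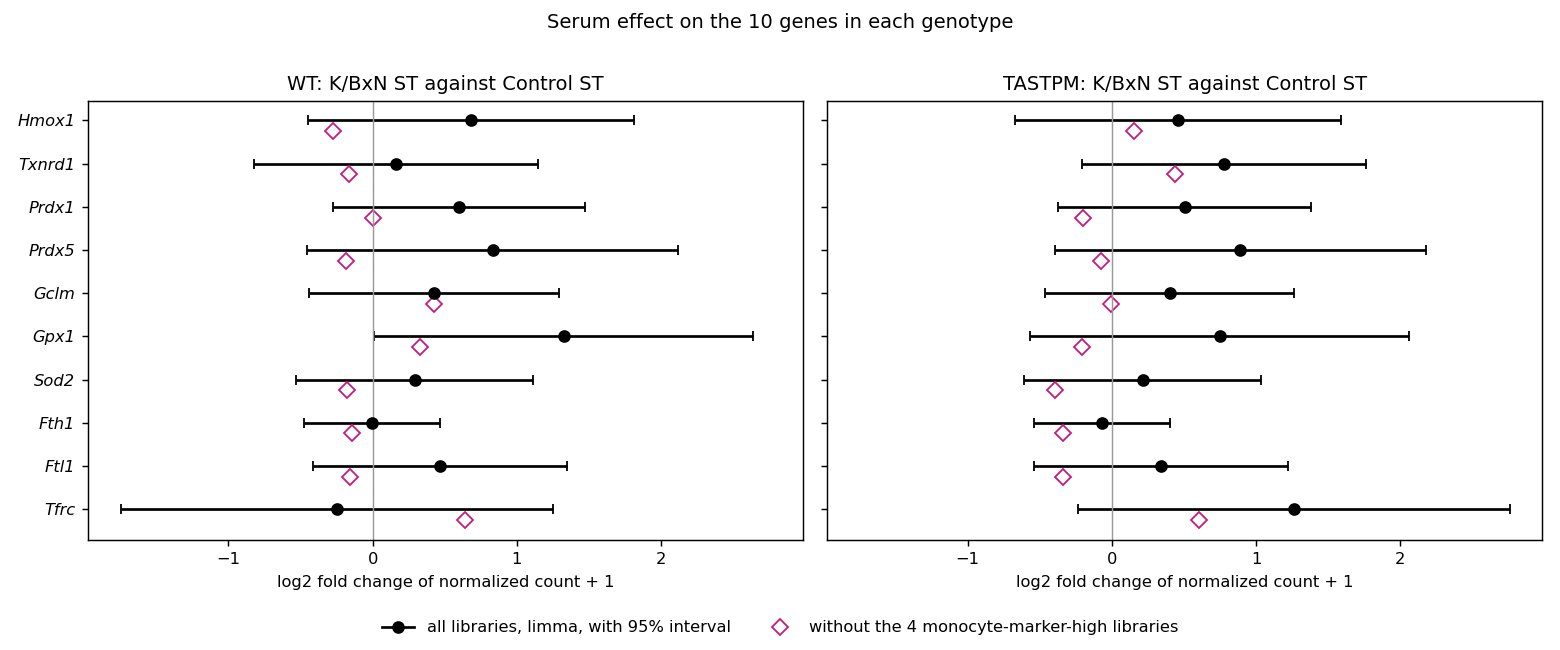
Log2 fold change of normalized count + 1, K/BxN ST against Control ST, for each gene in WT and TASTPM, as circles with 95% intervals from limma over all libraries and as diamonds without the 4 monocyte-marker-high libraries. For Prdx5 in WT the circle is at 0.83 and the diamond at -0.19, and only the interval of Gpx1 in WT lies above 0.

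The ferritin chains, which assemble into 1 shell, differed in their spread over libraries. Ftl1 had 32010.0, 22804, 11943 and 10769.6 normalized counts for WT K/BxN ST against 14583, 11925 and 11621 for WT Control ST. In TASTPM it had 33077, 25048, 10489 and 11973 under K/BxN ST against 14612, 16045 and 12143 under Control ST. Its 4 highest libraries were the monocyte-marker-high ones. Fth1 had 51226, 46071, 42057 and 37726 for WT K/BxN ST against 49539, 42737 and 40488 for WT Control ST. In TASTPM it had 53002, 55729.6, 36360.2 and 38607 under K/BxN ST against 46413, 56160.4 and 40859 under Control ST. Groups overlapped in both genotypes, and the highest Fth1 library of all was a Control ST library.

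The ratio of Ftl1 to Fth1 reads per kilobase, a measure within each library that needs no scaling, was chosen after these values were seen and is given with no test. It was 1.64, 1.30, 0.745 and 0.749 for WT K/BxN ST against 0.773, 0.732 and 0.753 for WT Control ST. In TASTPM it was 1.64, 1.18, 0.757 and 0.814 under K/BxN ST against 0.826, 0.750 and 0.780 under Control ST. The 4 monocyte-marker-high libraries were above 1 and the other 10 were below 1, within 0.732 to 0.826. Ftl1 counts may hold reads of Ftl1-ps1, a near-identical copy that had 167 to 727 normalized counts, and annotated transcripts on the other strand overlap the exons of both ferritin genes.

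**Figure D4:**
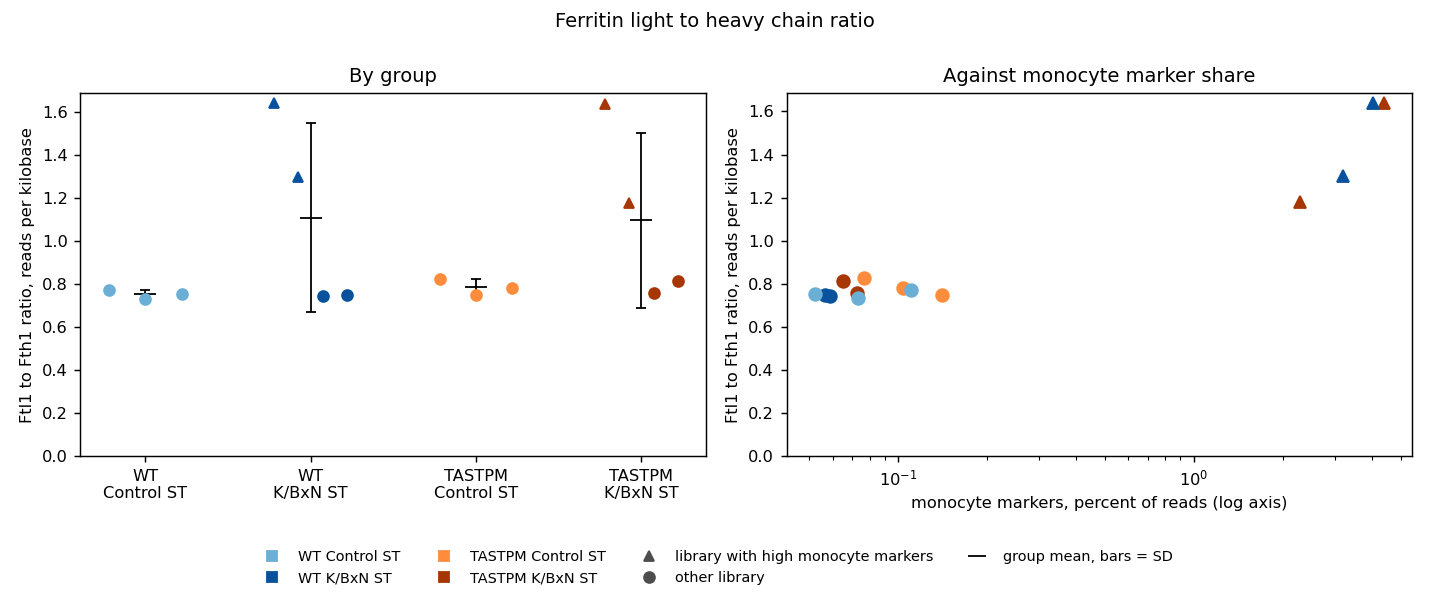
Ratio of Ftl1 to Fth1 reads per kilobase of exon by group (left, with mean and SD) and against the percent of reads on 12 monocyte markers on a log axis (right), 1 symbol per library. The 10 libraries with at most 0.141% monocyte marker reads lie between 0.732 and 0.826, and the 4 with 2.29 to 4.39% lie between 1.18 and 1.64.

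The second question was whether TASTPM microglia differed from WT microglia under the same serum. Hmox1, which opens the heme ring and frees its iron, had the largest difference under control serum. It had 1328, 1739 and 2168 normalized counts for TASTPM Control ST and 692, 858 and 1007 for WT Control ST. All 3 TASTPM libraries were above all 3 WT libraries, which held for 1 of 10 members and for 4.97% of tested genes. The mean was 1745 ± 420 (SD, n = 3) against 852 ± 158 (n = 3), a log2 fold change of 1.02 (SE 0.57, 95% interval -0.19 to 2.23), with an unadjusted p of 0.0915 and an adjusted p of 0.901 in limma. The two-sided exact permutation test gave p = 0.1, the smallest that 3 against 3 allow. Without the libraries of conflicting number the log2 fold change was 0.85 (SE 0.43). In the same libraries border macrophage markers took 0.0265 to 0.0490% of reads in TASTPM Control ST and 0.0188 to 0.0215% in WT Control ST, and dendritic cell markers 0.00234 to 0.00271% and 0.000544 to 0.00127%. Microglia markers took 6.54 to 7.84% and 7.97 to 8.46%, neutrophil markers 0.0243 to 0.0435% and 0.0436 to 0.0691%, and red cell markers (5 of 7 measured) 0.00309 to 0.00720% and 0.00834 to 0.242%. These 5 lists thus separated the groups as Hmox1 did, the first 2 in the same direction and the other 3 in the opposite one, and their part in its values was not tested.

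Under K/BxN serum, Hmox1 had 3897, 2165, 2015 and 1803 normalized counts in TASTPM and 3590.5, 1928, 1205 and 401 in WT. These groups overlapped through the monocyte-marker-high WT libraries, which were the highest of their group. The log2 fold change was 0.80 (SE 0.49, 95% interval -0.25 to 1.84), with an adjusted p of 1.00 in limma and p = 0.314 in the two-sided exact permutation test. Left out 1 at a time, libraries moved it between 0.21 and 1.27, where the low value was reached without WT K/BxN ST library 4, the one with 401 and 1 of the 2 of conflicting number, and the high value without WT K/BxN ST library 1. Without the monocyte-marker-high libraries the log2 fold change under K/BxN serum was 1.45 (unadjusted p 0.00738 in limma), and Hmox1 was not called. That fit leaves 2 K/BxN ST libraries per genotype, with WT K/BxN ST library 4 among them. Among the 10 libraries that were not monocyte-marker-high, the 5 of TASTPM held 1328 to 2168 and the 5 of WT held 401 to 1205, with no overlap. This comparison, which pools both sera, was chosen after the values were seen and has no test, and 0.546% of tested genes were above in the same way. The outer values, 2168 and 401, belong to the 2 libraries of conflicting number, without which 4 TASTPM libraries held 1328 to 2015 and 4 WT libraries 692 to 1205. If the library with 2168 belonged to WT, as its number in the labels has it, the groups would overlap.

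No member was called in either comparison of genotypes, where 0 genes in all were called (0.0% of those tested under control serum and 0.0% under K/BxN serum), and no member had an unadjusted p below 0.05 in limma, edgeR or DESeq2, beside 5.57%, 4.6% and 6.71% of tested genes under control serum and 1.91%, 1.46% and 2.08% under K/BxN serum. Under control serum the log2 fold change was positive for 8 of 10 members, with a median of 0.13 beside 0.04 over all tested genes. Under K/BxN serum it was positive for 9 of 10, with a median of 0.12 beside -0.00087. No member had all TASTPM K/BxN ST libraries above all WT K/BxN ST libraries, as 1.16% of tested genes had. The 2 comparisons have no libraries in common, but the serum comparisons share the libraries of both.

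The thioredoxin and glutathione genes of low abundance showed wide spreads within groups. Txnrd1, the selenoenzyme that reduces thioredoxin, had 1378, 1067, 893 and 643 normalized counts for TASTPM K/BxN ST against 730.2, 491 and 486 for TASTPM Control ST, with 1 of the 4 inside the control range. In WT it had 905, 757, 655 and 422 under K/BxN ST against 1076, 225 and 848 under Control ST, where the control libraries spanned the others. Gclm, which sets the rate of glutathione synthesis together with its catalytic partner, had 556, 372, 399 and 517 for WT K/BxN ST against 213, 422 and 429.8 for WT Control ST. In TASTPM it had 873, 469.9, 268 and 495 under K/BxN ST against 462, 436 and 243 under Control ST. For both genes K/BxN ST and Control ST overlapped in both genotypes.

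Sod2, the superoxide dismutase of the mitochondrial matrix, had 1237, 972, 603 and 535 normalized counts for WT K/BxN ST against 778, 551 and 625 for WT Control ST. In TASTPM it had 1596, 1115, 721 and 459 under K/BxN ST against 825, 704 and 741 under Control ST. The lowest library of all was a K/BxN ST library in either genotype, and the highest was too.

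Other genes of these pathways were read from 4 lists. Of the NRF2 regulators, 9 of 10 were tested and none was called in any comparison (limma). Nfe2l2, which encodes NRF2, had a log2 fold change of -0.14 (SE 0.15) for the averaged serum effect and Sqstm1, an autophagy adaptor that binds KEAP1, one of 0.05 (SE 0.13). The smallest p values of this list belonged to Bach2 (-0.50), a repressor that competes at AREs, Mafg (-0.30), a partner of NRF2, and Cul3 (0.27), the ubiquitin ligase scaffold that works with KEAP1. Bach2 had 191 to 365 normalized counts in the 4 monocyte-marker-high libraries and 385 to 792 in the other 10, and it was the 1 gene of the 9 with these 4 below all others, beside 2.51% of tested genes. The median over the list was -0.01 beside 0.03 over all tested genes.

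Of 22 NRF2 targets outside the members, 19 were tested, 16 had a positive averaged serum effect and none was called, with a median of 0.63 beside 0.03. An unadjusted p below 0.05 was reached upward by 6 of them, beside 5.79% of tested genes. Cat, or catalase, had 2557, 1968, 1837 and 1955 normalized counts for TASTPM K/BxN ST against 1578, 1381 and 1819 for TASTPM Control ST, and 2822, 2705, 1937 and 1959 for WT K/BxN ST against 2158, 1506 and 1652 for WT Control ST. The groups did not overlap in TASTPM and overlapped in WT. Red cell markers also separated the TASTPM groups in this direction, with 0.0101 to 0.0276% of reads in TASTPM K/BxN ST and 0.00309 to 0.00720% in TASTPM Control ST. Their part in the values of Cat was not tested. Over all tested genes, 2.67% had all K/BxN ST libraries above all Control ST libraries in TASTPM and 3.67% in WT. The averaged log2 fold change of Cat was 0.39 (SE 0.15, adjusted p 0.536). Srxn1, which repairs overoxidised peroxiredoxins, had 122, 137, 238 and 231 for TASTPM K/BxN ST against 0, 27.8 and 2.73 for TASTPM Control ST, again with no overlap (2.67% of tested genes), and 349, 77.9, 65.7 and 0 for WT K/BxN ST against 0, 11.7 and 278 for WT Control ST, where the groups overlapped. Red cell markers separated these TASTPM groups in the same direction here too, and their part in the values of Srxn1 was not tested. The counts of Srxn1 in 4 libraries were at or under the 3 reads taken as the smallest detectable number, so no fold is given. The pentose phosphate enzymes Pgd, Taldo1 and G6pdx, which make NADPH or shuttle its sugars, had averaged log2 fold changes of 0.63, 0.81 and 0.75 and adjusted p values of 0.536, 0.536 and 0.554. The 4 monocyte-marker-high libraries exceeded the other 10 for 9 of the 19 genes, Pgd, Taldo1 and G6pdx among them, beside 7.63% of all tested genes.

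Of 28 genes, Cat and Srxn1 of the list above among them, that act on peroxide, superoxide or oxidised protein, 24 were tested, 19 had a positive averaged serum effect and none was called, with a median of 0.39. Msra, which reduces oxidised methionine, had the smallest p: it held 1011, 747, 307 and 376 normalized counts for TASTPM K/BxN ST against 247, 85.5 and 161 for TASTPM Control ST, and 965, 476, 205 and 274 for WT K/BxN ST against 199, 146 and 287 for WT Control ST. The groups did not overlap in TASTPM, as for 2.67% of tested genes, and overlapped in WT. Red cell markers separated the TASTPM groups in the same direction (0.0101 to 0.0276% of reads under K/BxN ST, 0.00309 to 0.00720% under Control ST). Their part in the values of Msra was not tested. The averaged log2 fold change of Msra was 1.41 (SE 0.40, unadjusted p 0.00318, adjusted p 0.466 in limma). Glrx, a glutaredoxin, had 1.02 (adjusted p 0.515). The most abundant genes per length, Txnip, an inhibitor of thioredoxin, Gpx4, the peroxidase of lipid peroxides, and Prdx3, a mitochondrial peroxiredoxin, had -0.17, 0.37 and 0.01. In 10 of the 24 genes the monocyte-marker-high libraries exceeded the others, beside 7.63% of all tested genes, and in 1, Msrb2, they were below, beside 2.51%.

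Of 37 iron-handling genes, 25 were tested, 14 had a positive averaged serum effect and none was called, with a median of 0.10. Hp, which encodes haptoglobin and is made by granulocytes and monocytes, had 9395 to 25011 normalized counts in the 4 monocyte-marker-high libraries and 0.838 to 48.0 in the others. Slc48a1, a heme transporter, had an averaged log2 fold change of 0.52 (adjusted p 0.536). Trf, which encodes transferrin and was the most abundant of the list per length, had -0.30 (SE 0.20), and Slc11a1, an exporter of metals from phagosomes, had -0.14 (SE 0.16). In 2 of the 25 genes, Hp and Fbxl5, the monocyte-marker-high libraries exceeded the others, a share near the 7.63% of all tested genes.

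**Figure D5:**
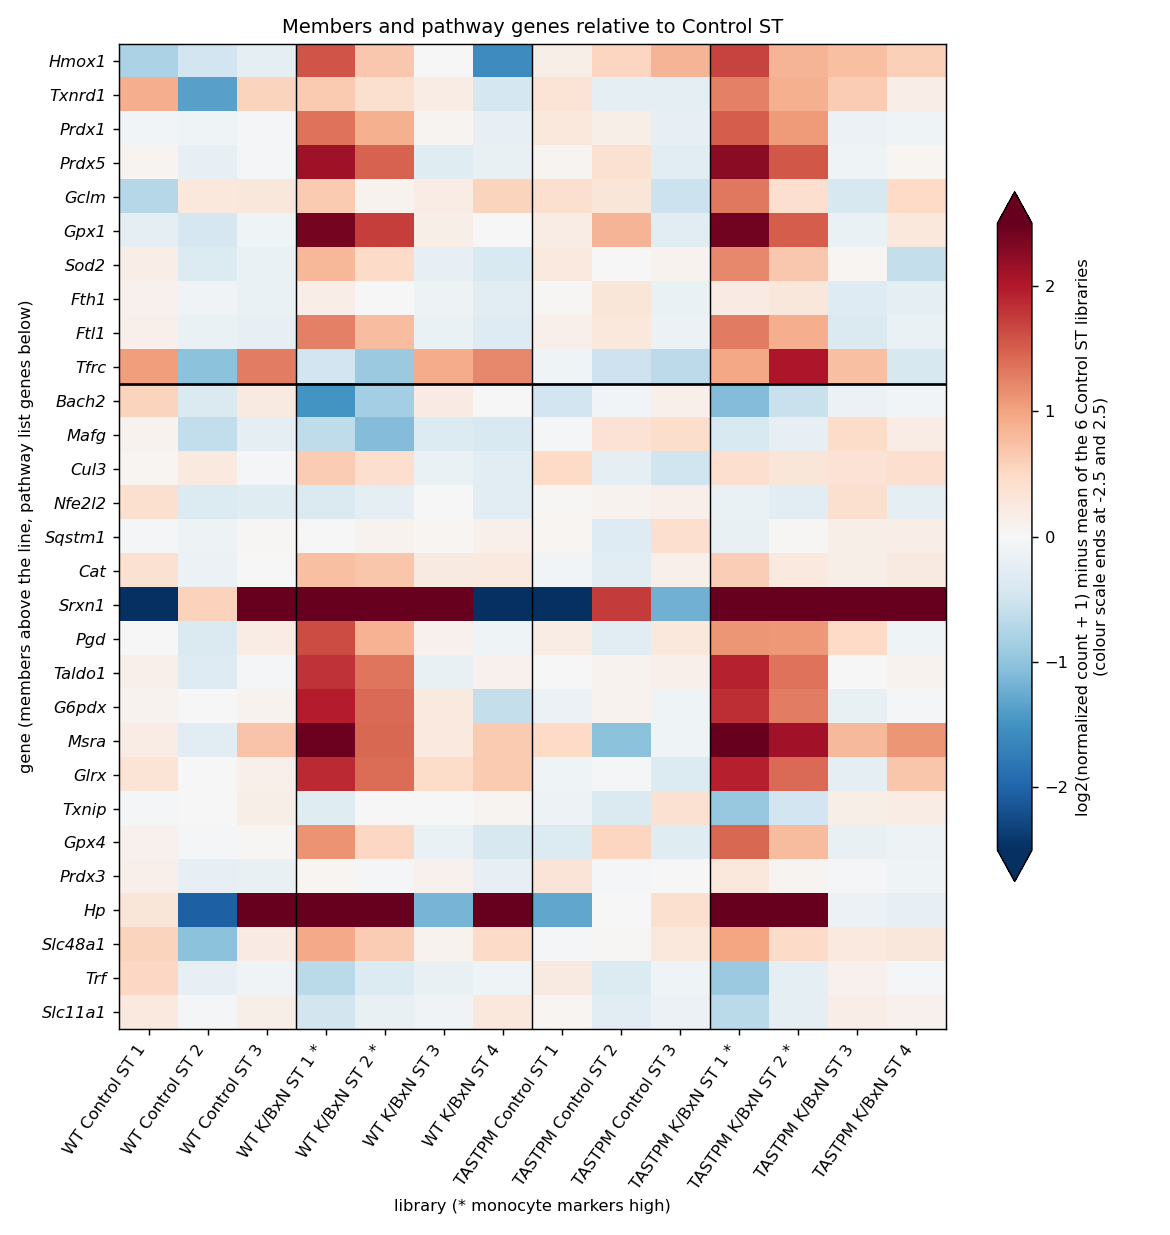
Colour map of log2(normalized count + 1) minus its mean over the 6 Control ST libraries, with the 10 members above the line, the named pathway genes below it and 1 column per library, where an asterisk marks the monocyte-marker-high libraries. Red columns under the asterisks show Prdx1, Prdx5, Gpx1, Ftl1, Taldo1, G6pdx, Msra and Glrx above the controls in the 4 libraries, and Fth1, Nfe2l2 and Sqstm1 stay pale throughout.

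The genes whose log2 values were most like each member over the 14 libraries are named as a description, since libraries share depth and cell content. For Prdx1 these included Arhgdib and Pfn1 (Pearson r 0.995 and 0.986), for Prdx5 Tmsb10, H3f3a and Samhd1 (0.989 to 0.985) and for Gpx1 Sh3bgrl3, Psma7 and Capg (0.985 to 0.978). Ftl1 was most like Ptma, H3f3a-ps1 and Rps6 (0.985 to 0.983), Sod2 like Atp5pb-ps, Smdt1 and Psma2 (0.954 to 0.947) and Fth1 like Cops9, Eef1d and Ndufa2 (0.942 to 0.922). Lower values were found for Txnrd1 with Impdh2-ps, Snx12 and Impdh2 (0.935 to 0.885), Gclm with Rps27a-ps2, Ctdspl and Eif1ax (0.912 to 0.873) and Hmox1 with Smarcb1, Gtf2f1 and Pdxk (0.901 to 0.888). Tfrc had the loosest likeness, with Ddx56, Nt5c3 and Ddb2 (0.786 to 0.751). Among the members themselves, Prdx1, Prdx5, Ftl1 and Gpx1 had an r of 0.957 to 0.981 with one another.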

How the data were processed

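Bulk RNA-seq of sorted dorsal horn microglia was analysed in 14 libraries. Per the labels and the study's methods, the authors amplified cDNA with SMART-Seq, aligned reads with HISAT2 2.1 to GRCm39 and counted them per gene with featureCounts 1.5.2. The values the authors deposited are a normalized signal, in which the read count of a gene is divided by 1 factor per library. Every value (100%, tolerance 0.05) was a whole multiple of 1 read, and the recovered reads gave depths and RPKM. The deposited header names the group of each column. Of 14 column numbers, 2 belong to another group in the labels and 2 to none. TASTPM K/BxN ST columns match the labels in number and group, and libraries of the other 3 groups are numbered in the order of the deposited values.

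The 12645 genes with 10 reads or more in 7 libraries or more were tested with limma 3.58.1 (R 4.3.3, trended prior variance, 1 fit to the 4 groups) on log2(normalized count + 1), with Benjamini-Hochberg adjustment over all of them, and called at an adjusted p below 0.05 and an absolute log2 fold change above 1. The pseudocount understates the change of low genes. edgeR 4.0.16 and DESeq2 1.42.0 were run on the recovered reads. The scripts were tested on simulated data. Single genes were also tested by two-sided exact permutation with SciPy.

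The members and lists were chosen with earlier results of these data known. The text names every member and, from each pathway list, the called genes, the 3 genes with the smallest p for the averaged serum effect and the 3 most abundant per length, apart from items not reported here. Other genes named were chosen after their values were seen. Counting intervals cover counting error only, as reads were not tagged as molecules, and a count of 3 reads was the floor of detection. Alternatives covered scaling, pseudocount, filter, variance, tool, marker and sex-linked covariates and omission of each library.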

Additional observations from a re-analysis of the deposited data

How the results depend on the processing

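No member was called in any of the 6 comparisons under any of the 32 alternatives or in the fit as reported, and the smallest adjusted p of a member was 0.0683, for Prdx5 in the averaged serum effect with DESeq2 without a filter. The number of genes called depended on the tool and, in DESeq2, on the filter. DESeq2 without a filter called 275 genes in WT, 88 in TASTPM, 36 for the interaction, 84 between the genotypes under control serum and 438 for the averaged serum effect, against 1, 0, 0, 0 and 0. On the genes that pass the filter, an alternative added after the data were seen, it called 127, 16, 12, 41 and 179, and edgeR called 0 in each. Without the libraries of conflicting number the count was 3 in WT, 1 in TASTPM and 1 between the genotypes under control serum. In WT it was 2 with no trend and 0 with edgeR, a pseudocount of 10, 10 reads in all libraries, only the groups compared, the marker covariate or without the monocyte-marker-high libraries. It was 1 between the genotypes under control serum with either covariate and without those libraries, and 1 for the averaged serum effect with no trend. Leaving out 1 library at a time gave 0 to 17 genes in WT, 0 to 1 in TASTPM, 0 to 3 for the interaction, 0 to 11 between the genotypes under control serum and 0 to 9 for the averaged serum effect.

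The refits counted here cover 23 fold changes: each member's serum effect in each genotype, Hmox1 between the genotypes under each serum, and the interaction of Tfrc. Of these 735 refits, 48 had the opposite sign, and the cause was not tested. Other comparisons were not counted and also held sign changes. Tfrc between the genotypes under K/BxN serum ranged from -0.88 to 1.07, and the averaged serum effect of Prdx5 from -0.14 to 1.21. With the marker covariate the log2 fold changes in WT were -0.030 for Prdx1, -0.14 for Prdx5, -0.20 for Txnrd1, -0.17 for Ftl1 and -0.24 for Sod2, and in TASTPM -0.17 for Hmox1, -0.16 for Prdx1, -0.14 for Prdx5, -0.34 for Ftl1, -0.35 for Sod2 and -0.27 for Gpx1. Without the monocyte-marker-high libraries they were in WT -0.28 for Hmox1, -0.19 for Prdx5, -0.17 for Txnrd1, -0.16 for Ftl1, 0.64 for Tfrc and -0.18 for Sod2, and in TASTPM -0.20 for Prdx1, -0.077 for Prdx5, -0.0054 for Gclm, -0.34 for Ftl1, -0.39 for Sod2 and -0.21 for Gpx1, with -0.032 for the interaction of Tfrc. The sex-linked covariate gave 0.042 for Fth1 in WT, and -0.10 for Hmox1, -0.063 for Ftl1 and -0.23 for Sod2 in TASTPM. Txnrd1 in WT was -0.052 with edgeR and -0.064 with DESeq2, or -0.062 on the filtered genes. Fth1 in WT was 0.015 with edgeR, 0.000017 with DESeq2, or 0.0020 on the filtered genes, 0.071 without the libraries of conflicting number, 0.0095 with TMM scaling and 0.054 with library totals. Leaving out 1 library, the range was -0.53 to 0.59 for Txnrd1, -0.077 to 0.081 for Fth1 and -0.98 to 0.17 for Tfrc in WT, and -0.18 to 0.051 for Fth1 and -0.074 to 0.52 for Sod2 in TASTPM. Hmox1 stayed higher in TASTPM Control ST than in WT Control ST under all of them (0.85 to 1.57).

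No paired analysis was possible because the labels give no replicate number to more than 1 group. Reads per library limited Tfrc most, with 80 to 595 reads.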

Other observations

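Across 20 groups of 4 libraries (10 members in WT K/BxN ST and TASTPM K/BxN ST), no library stood apart from the rest of its group by a Dixon ratio above 0.829, and the Control ST groups of 3 were not examined in this way. The ratio looks for 1 library apart and cannot flag a group that splits 2 against 2, as the K/BxN ST groups did for Prdx1 and Prdx5.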
